A study of Mus musculus and Rattus norvegicus with 11 samples.

Results

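The Hox genes encode homeodomain transcription factors, and every annotated gene whose symbol is Hox followed by a cluster letter and a paralog number was taken from the mouse and rat single-cell tables. The mouse table held 40 such identifiers under 39 symbols among 31053 genes, and the rat table held 45 identifiers under 39 symbols among 32883 genes. Cells of peripheral nerve had been captured as single-cell 3′ libraries from undiseased C57BL/6 mice (3 libraries), NOD control mice (3 libraries, of which 2-1 and 2-2 share a number and were summed as NOD control 2), mice labelled as an Icam1 knockout on the NOD background (3 libraries) and naive Lewis rats (2 libraries). NOD is a mouse strain prone to autoimmunity, and the series compares its control mice with the knockout label to study chronic autoimmune neuritis. In mouse, brachial plexus and sciatic nerve were pooled with no barcode tied to either, whereas rat tissue was sciatic nerve alone, so the nerve of origin cannot be told apart within a mouse library. Ages and sexes are not given, and the labels do not say how many animals each library holds, so p-values measure only the spread between libraries, which may be technical.

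Hox genes lie in 4 clusters, A to D, and each gene carries the number of its paralog group, which follows its place in the cluster. In the embryo, low-numbered genes are switched on toward the head and high-numbered genes toward the tail, and in the limbs and along the trunk their combination marks where a cell lies. Adult fibroblasts are known to keep much of this pattern, so Hox genes are often read as a record of body position. The proteins bind DNA together with cofactors of the Pbx and Meis families, and the clusters are held open or shut by Polycomb and Trithorax complexes and respond to retinoic acid.

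The mouse clusters lie at chr6:52155590-52260880 (HoxA), chr11:96194316-96368256 (HoxB), chr15:102921103-103036852 (HoxC) and chr2:74668310-74765142 (HoxD) in build GRCm38, the coordinates being those of the first and last exon of the genes in each. The 250 bases ahead of the RefSeq start (GRCm38.p6) are shown for 3 genes of different clusters whose levels in endothelial cells and fibroblasts are given below. Only Hoxa10 of the 3 had ranges that did not overlap between these types. Windows that overlap no annotated exon were chosen, and each is written 5′ to 3′ on the gene's own strand with CG pairs in capitals. Hoxa10 (chr6:52240855-52241104, minus strand), the gene with the most Hox UMIs in mouse, holds 7 CG pairs in this window. The window of a second Hoxa10 start (chr6:52234940-52235189), which is not printed and also overlaps no annotated exon, holds 20. Hoxb4 (chr11:96318017-96318266, plus strand) holds 14 and Hoxd8 (chr2:74704365-74704614, plus strand) holds 6.
Hoxa10: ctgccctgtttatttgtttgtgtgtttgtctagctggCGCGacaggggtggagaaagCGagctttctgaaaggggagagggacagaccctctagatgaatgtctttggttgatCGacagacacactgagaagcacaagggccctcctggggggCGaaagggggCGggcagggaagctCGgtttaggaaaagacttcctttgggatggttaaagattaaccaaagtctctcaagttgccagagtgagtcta
Hoxb4: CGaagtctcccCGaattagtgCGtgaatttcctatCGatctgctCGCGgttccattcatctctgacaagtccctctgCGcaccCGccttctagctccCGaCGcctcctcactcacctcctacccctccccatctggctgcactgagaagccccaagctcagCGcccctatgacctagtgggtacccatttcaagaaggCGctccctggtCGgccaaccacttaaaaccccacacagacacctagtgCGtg
Hoxd8: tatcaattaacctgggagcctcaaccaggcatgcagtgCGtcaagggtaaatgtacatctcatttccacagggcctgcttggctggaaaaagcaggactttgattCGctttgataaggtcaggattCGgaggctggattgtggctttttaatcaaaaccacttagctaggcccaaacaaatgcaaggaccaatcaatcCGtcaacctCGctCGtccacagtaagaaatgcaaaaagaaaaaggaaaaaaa
The 24 Hox windows, of 22 symbols, held a median of 12.5 CG pairs, against 6 over all 32841 windows of the same length. The sequence TGATNNAT, a Pbx-Hox type letter pattern searched on both strands, was found in 7.69% of all windows and in 4 of the 24 Hox windows, those of Hoxa2, Hoxb1, Hoxb8 and Hoxd11. TTTATNG, a letter pattern bound by high-numbered Hox proteins and Cdx proteins, was found in 9.81% of all windows and in 2 of the 24, those of Hoxb8 and Hoxd4. Neither pattern was in the windows printed above, which says only that these letters are absent from those 250 bases.

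The 9 mouse libraries held 16050 barcodes with 571042 to 6631004 unique molecular identifiers (UMIs, each 1 captured molecule) per library, and 15672 barcodes had a cell type name from the authors. The 2 rat libraries held 12500 barcodes with 17958844 and 19074026 UMIs, of which 12360 were named. Median UMIs per barcode ran from 591 to 1530 in mouse and from 2647 to 2670 in rat. Pairs of mouse libraries shared 0 to 15 barcodes, and the pair of rat libraries shared 59. Cell types are called by the authors' names: EC1, EC, vascular EC and microvasculatory EC are endothelial, fibro are fibroblasts, mySC and nmSC are named as Schwann cells, and PC and vSMC are mural cells. The name nmSC was not borne out by its defining markers. A list of 6 pan-Schwann genes summed to 90.6 to 279 CPM (a counts-per-million scale, UMIs of the genes over all UMIs of that cell type and sample) in nmSC of C57BL/6, against 2942 and 3502 CPM in mySC, while 6 pan-fibroblast genes summed to 45070 to 85370 CPM in nmSC. The same lists gave 71.3 and 78.7 CPM for Schwann genes and 41550 and 46950 CPM for fibroblast genes in rat nmSC, so these cells are called nmSC below only as the authors' name.

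Hox UMIs in named cells numbered 3383 in mouse and 2011 in rat. In mouse 1522 came from HoxA, 687 from HoxB, 897 from HoxC and 277 from HoxD. In rat 1301 came from HoxC, 283 from HoxA, 228 from HoxD and 199 from HoxB. The order of the clusters therefore differed between the tables, but species, nerve, isolation and depth differ too, and no comparison was made. In mouse 4 symbols had no UMI (Hoxa13, Hoxb13, Hoxc12 and Hoxd12), and 16 reached 50 UMIs. In rat 13 symbols had none and 11 reached 50. All but 3 of the rat HoxA UMIs fell on Hoxa5, and rat Hoxa7 and Hoxa9 had 0 UMIs. Rat Hoxa10 had 2. Because 4 rat symbols of this cluster (Hoxa4, Hoxa5, Hoxa11 and Hoxa13) sit on several identifiers each, the rat HoxA values are uncertain, and whether they reflect the gene models was not tested. In mouse 9 identifiers share exon bases with another gene on the same strand and 10 with an antisense gene. Hoxc5 overlaps Hoxc10 and Hoxd3 overlaps Hoxd4 on the same strand, so reads could have been split or dropped in those pairs. Hoxa7 has the antisense partner Hoxaas3 and Hoxb2 the partner Hoxb3os, where this would hold only if strand were not used.

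Endothelial cells carried more Hox RNA than fibroblasts, and blood-derived cells carried almost none. The summed level, all Hox UMIs of a cell type in a sample on the CPM scale, was 393 CPM in EC1 of C57BL/6 1, 659 in C57BL/6 3 and 542 in C57BL/6 4 (mean 531.6 ± 133.3, SD, n = 3). EC of the NOD controls had 637 and 602 CPM. The fibroblasts of the same 5 samples had 248, 363 and 339 CPM in C57BL/6 and 299 and 388 CPM in the NOD controls. Endothelial cells were thus above fibroblasts in 5 of 5 samples, and their ranges did not overlap. Levels in nmSC were lower again, at 242, 225 and 215 CPM in C57BL/6 and 253 and 205 CPM in the NOD controls. The nmSC range overlapped that of fibroblasts.
Among the mural cells, the pericytes and smooth muscle around vessels, PC had 494 and 566 CPM in C57BL/6 1 and 3, and vSMC had 358 and 423 CPM. PC was thus above EC1 in C57BL/6 1 and below it in C57BL/6 3, while vSMC lay between EC1 and fibro in both samples. The 69 mural cells of NOD control 2, named vSMC/PC, had 377.5 CPM on 19 Hox UMIs. That was below the 388 CPM of fibro in the same sample. The mySC, in which the Schwann markers were high, had 0 and 45.3 CPM in C57BL/6 and 153 and 84.6 CPM in the NOD controls, the 153 resting on 2 UMIs. Leukocytes pooled over samples had 3 Hox UMIs in C57BL/6, or 2.84 CPM (95% exact Poisson interval 0.586 to 8.30, which like all intervals of counts and shares here covers counting error only). They had 22.2 CPM in the NOD controls, 10.7 CPM in the libraries labelled Icam1 knockout and 9.16 CPM in rat.
Rat levels were lower on the same scale, at 185 and 214 CPM in vascular EC, 86.9 and 104 CPM in microvasculatory EC, 65.8 and 74.4 CPM in fibro and 69.2 and 63.9 CPM in nmSC. In both rat samples the endothelial types were the highest. The rat sums hold almost no HoxA UMIs outside Hoxa5, and the part of that in the lower level was not tested. These sums cannot tell fewer Hox molecules per cell from fewer cells that express them.

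**Figure D1:**
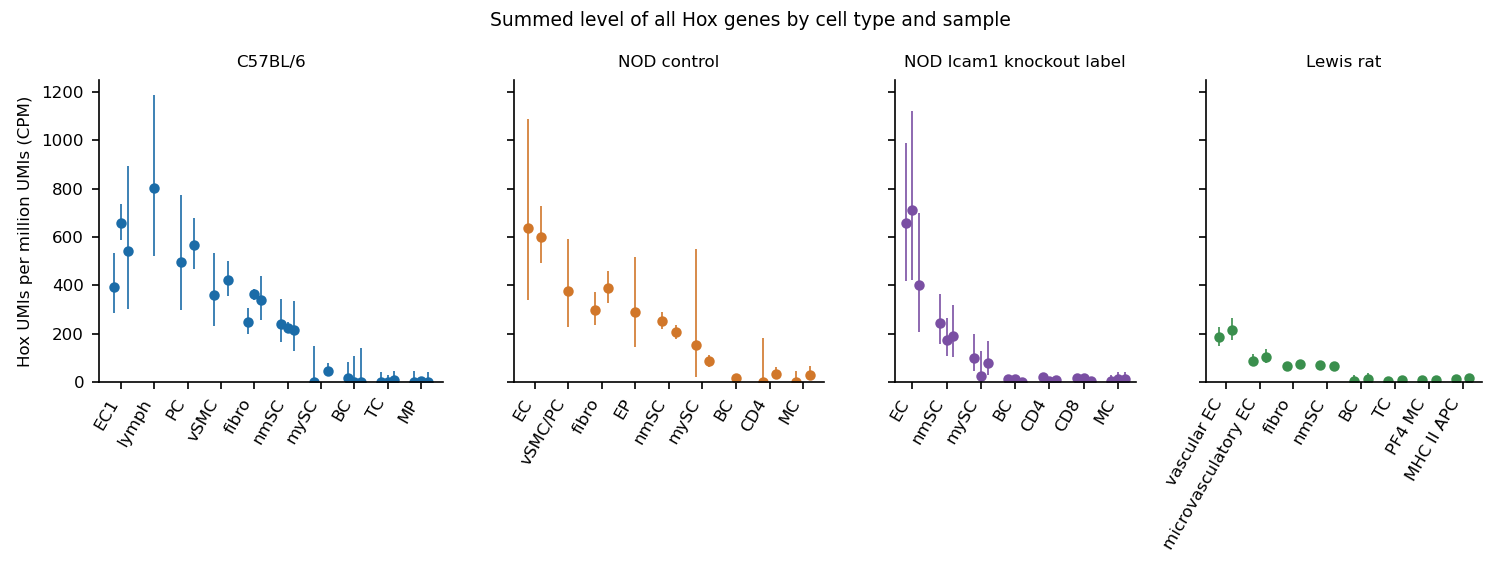
Summed level of all Hox genes (y axis, CPM) by cell type (x axis), 1 panel for each group and 1 point for each sample with at least 20 cells of the type. Bars are 95% exact Poisson intervals. Endothelial types lie above fibro and nmSC in the samples of C57BL/6, NOD control and Lewis rat, PC lies beside EC1 in C57BL/6, and B cells, T cells and myeloid cells lie near 0.

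Counted per cell, EC1 again stood above fibro and fibro above nmSC in C57BL/6. Cells with at least 1000 UMIs were thinned to 1000 each, which left out 223 of 498 EC1, 266 of 1551 fibro and 433 of 1430 nmSC in C57BL/6. A Hox UMI was then found in 46.5% of EC1 cells (46.2% unthinned), in 27.4% of fibro (43.8% unthinned) and in 19.8% of nmSC (25.5% unthinned). The share was 0 of 130 T cells and 0 of 28 B cells, which allows shares of up to 2.80% and 12.3%. The EC1, fibro and nmSC shares were above both limits, with cells pooled over libraries. Free RNA itself was not measured. Median depths before thinning were 1082 UMIs in EC1, 1987 in fibro, 1306 in nmSC, 912 in T cells and 692 in B cells. In rat the thinned shares were 20.2% in vascular EC, 6.82% in fibro, 6.67% in nmSC and 5.84% in microvasculatory EC, against 0.513% in T cells. By this measure microvasculatory EC stood below fibro and nmSC, while its summed level was above theirs.

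The clearest difference in composition was in the HoxC cluster. HoxC gave 0 of 42 Hox UMIs in EC1 of C57BL/6 1, 1 of 312 in C57BL/6 3 and 0 of 15 in C57BL/6 4. Endothelial cells of the NOD controls had 0 of 13 and 1 of 103. Over these 5 samples, EC1 and EC had 2 HoxC UMIs among 799257 UMIs. Fibroblasts had 413 among 3875806, a ratio of 42.6 (11.7 to 353). Here and below, endothelial values in mouse are those of EC1 and EC, without the cells named EC2. All 7 HoxC genes that reached 20 UMIs (Hoxc4, Hoxc5, Hoxc6, Hoxc8, Hoxc9, Hoxc10 and Hoxc11) were higher in fibroblasts in at least 4 of the 5 samples. The authors named the cells from the expression of these same cells, so comparisons between cell types are descriptions, with no test.
In fibroblasts, HoxC gave 39.3% of Hox UMIs in C57BL/6 1, 29.7% in C57BL/6 3 and 7.14% in C57BL/6 4, and 35.4% and 37.3% in the NOD controls. The fibroblasts of C57BL/6 4 stood apart: 4 of their 56 Hox UMIs were HoxC (95% Clopper-Pearson interval 1.98% to 17.3%) and 83.9% were HoxA. That library gave 78 fibroblasts. The mean of the group was 25.4% ± 16.5 (SD, n = 3), and 34.5% without that sample. In nmSC the share was 31.3% and 34.8% in C57BL/6 1 and 3 and 36.1% and 42.2% in the NOD controls. All but the last of these lay within the range of the fibroblast samples, and the 42.2% of NOD control 2 was above it.
Mural cells resembled fibroblasts in having HoxC UMIs. The share was 23.9% in PC of C57BL/6 3 and 20.8% and 20.6% in vSMC of C57BL/6 1 and 3. A small group named EC2 had 8 HoxC UMIs of 12 in its 22 C57BL/6 cells, unlike EC1. It lay below the 20 cells per sample asked for elsewhere. Its markers were not summed, and it is not in the ratio above. The cells named EP in NOD control 2, in which 6 perineurial genes summed to 4778 CPM, had 11 Hox UMIs, and all 11 were HoxC. Hoxc10 gave 7 of them.
Rat showed the same split between types, though its shares are taken over sums with almost no HoxA UMIs outside Hoxa5. Those HoxA values are uncertain, so the rat shares cannot be set beside the mouse shares. HoxC gave 75.1% and 74.4% of Hox UMIs in fibro and 77.6% and 77.3% in nmSC, against 7.69% and 2.27% in vascular EC and 5.56% and 7.14% in microvasculatory EC. The 2 endothelial types of the rat differed in the other clusters. HoxD gave 63.7% and 59.1% in vascular EC, and HoxB gave 70.4% and 62.5% in microvasculatory EC. Vascular EC also carried 1833 and 2026 CPM of 5 lymphatic endothelial genes, against 37.3 and 46.6 CPM in microvasculatory EC, and the part of that in the HoxD share was not tested. In mouse the 21 cells named lymph in C57BL/6 3 had 0 HoxC and 13 HoxD UMIs among 25.

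**Figure D2:**
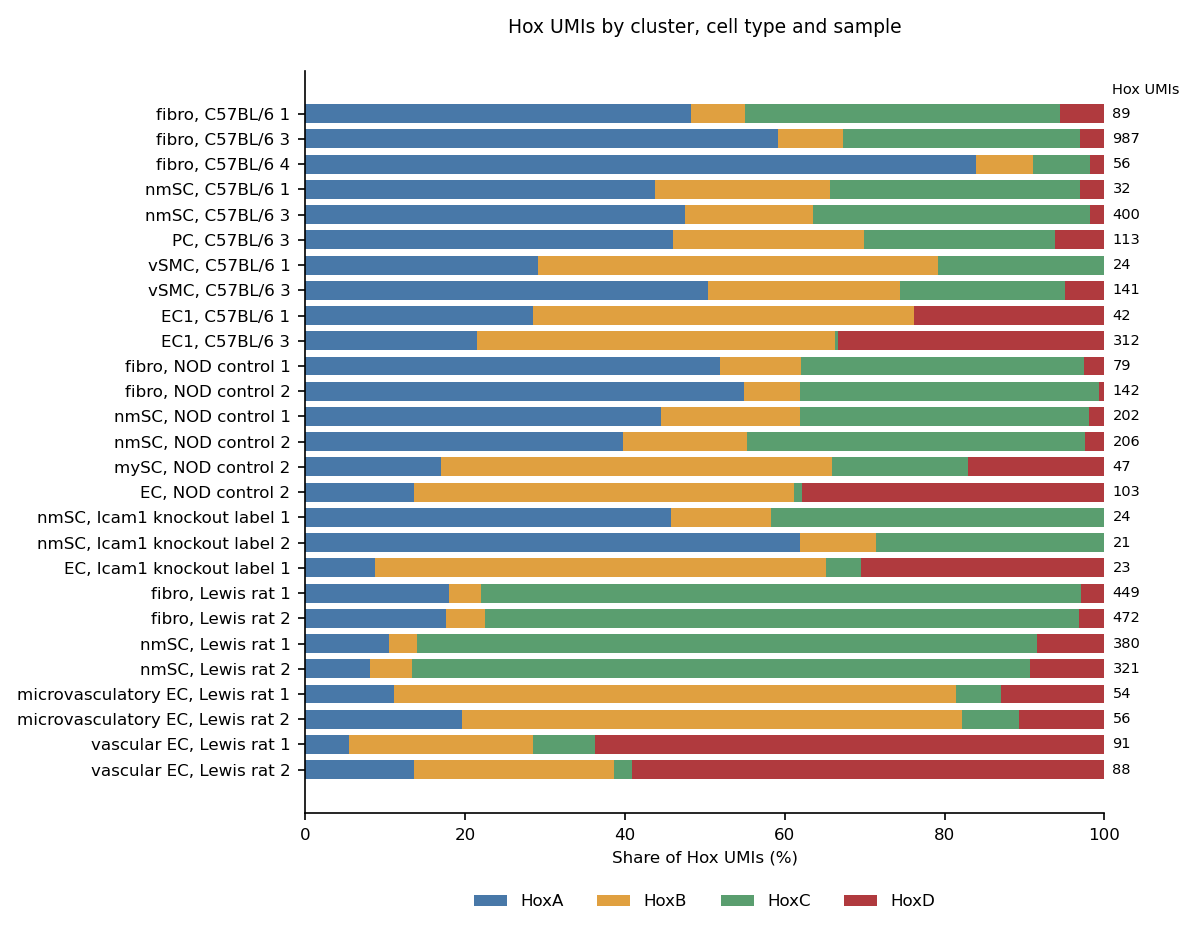
Share of Hox UMIs (x axis, percent) from the HoxA, HoxB, HoxC and HoxD clusters, 1 bar for each sample and cell type with at least 20 Hox UMIs, with the number of Hox UMIs at the right. The HoxC segment is 0% to 7.69% in every endothelial bar and 7.14% to 77.6% in the fibro and nmSC bars, where the lowest is that of C57BL/6 4.

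Among single genes, 20 Hox symbols reached 20 UMIs over endothelial cells and fibroblasts of the 5 mouse samples. In 3 of the 20 the lowest endothelial sample was above the highest fibroblast sample, against 5.94% of all 10230 genes with as many UMIs. In 4 of the 20 the lowest fibroblast sample was above the highest endothelial sample, against 8.78% of all such genes. These cell types differ in many genes, and the Hox shares are given only beside that background.
Hoxd9, a HoxD gene of paralog group 9, was the clearest of the endothelial ones. Its level in EC1 was 65.6, 163 and 145 CPM in C57BL/6 1, 3 and 4, and in EC of the NOD controls 98.0 and 181 CPM. In fibroblasts it was 5.57, 5.51 and 0 CPM in C57BL/6 and 3.79 and 0 CPM in the NOD controls. Every fibroblast sample was far below the lowest endothelial sample, and the pooled ratio was 32.6 (19.8 to 56.9). In nmSC its level was 0 to 7.55 CPM.
Hoxb7 was measured at 103, 110 and 108 CPM in EC1 and at 147 and 40.9 CPM in EC of the NOD controls. In fibroblasts it was 2.79 to 10.3 CPM over the 5 samples, and in nmSC 0 to 11.3 CPM. The lowest endothelial value, that of NOD control 2, was above every fibroblast value. Hoxa7, the third of these genes, was at 46.8, 82.4 and 181 CPM in EC1 and at 147 and 52.6 CPM in EC of the NOD controls. It was also present in the other types, at 22.3, 34.5 and 36.3 CPM in C57BL/6 fibroblasts and at 45.5 and 32.8 CPM in those of the NOD controls. Its pooled ratio was 2.24 (1.63 to 3.06), the smallest of the 3.
The ranges of the other HoxB and HoxD genes overlapped. Hoxb2, Hoxb4 and Hoxb6 were higher in endothelial cells in 4 of 5 samples, Hoxb5 and Hoxd8 in 3 and Hoxb9 in 2. Hoxb4 was at 37.5, 25.4 and 36.1 CPM in EC1 and 0 and 35.0 CPM in the NOD controls, and at 0 to 13.7 CPM in fibroblasts. Hoxd8 was at 28.1, 40.2 and 0 CPM in EC1, 0 and 46.7 CPM in the NOD controls, and 0 to 8.36 CPM in fibroblasts. Hoxb2 was at 18.7, 25.4 and 0 CPM in EC1, 49.0 and 29.2 CPM in the NOD controls, and 5.47 to 18.1 CPM in fibroblasts. The samples at 0 held 25 and 35 endothelial cells. Hoxb5, Hoxb6 and Hoxb9 had 24, 19 and 36 UMIs in endothelial cells and 5, 3 and 2 UMIs in fibroblasts, pooled ratios of 23.3, 30.7 and 87.3. The last rests on 2 fibroblast UMIs and has an interval of 22.5 to 748.
Hoxa5 and Hoxa9 showed no steady order between these types. Hoxa5 was at 28.1, 12.7 and 0 CPM in EC1 and 0 in both NOD controls, and at 5.47 to 18.1 CPM in fibroblasts. Hoxa9 was at 18.7, 19.0 and 36.1 CPM in EC1, 49.0 and 5.84 CPM in the NOD controls, and 8.36 to 30.1 CPM in fibroblasts.

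Hoxa10, a group 10 gene of the limb and lower trunk, was the Hox gene with the most fibroblast UMIs. It was at 72.4, 134.5 and 193.5 CPM in fibroblasts of C57BL/6 1, 3 and 4 and at 83.4 and 126 CPM in those of the NOD controls. In EC1 it was at 18.7, 12.7 and 36.1 CPM, and in EC of the NOD controls at 0 and 17.5 CPM. The highest endothelial sample was below the lowest fibroblast sample, and the pooled ratio was 8.46 (4.80 to 16.5). In nmSC it was at 7.55, 38.8 and 34.0 CPM in C57BL/6 and at 28.8 and 25.9 CPM in the NOD controls, all below every fibroblast sample.
The 7 HoxC genes are given by their place in the cluster. Hoxc4, at the low-numbered end, was at 8.36, 15.1 and 12.1 CPM in C57BL/6 fibroblasts and at 18.9 and 24.6 CPM in the NOD controls, and 1 UMI of it was found in endothelial cells. Hoxc6 was at 11.1, 16.2 and 6.05 CPM and at 26.5 and 19.1 CPM, with no endothelial UMI. Hoxc9 was at 25.1, 19.1 and 6.05 CPM and at 15.2 and 30.1 CPM, also with none. For these 3 genes no fibroblast sample fell as low as any endothelial sample.
The other 4 had no UMI in fibroblasts of C57BL/6 4, the library with few HoxC UMIs, and were present in the other 4 samples. There Hoxc5 was at 3.79 to 10.3 CPM, Hoxc8 at 3.79 to 13.7 CPM, Hoxc10 at 22.3 to 32.8 CPM and Hoxc11 at 8.45 to 19.1 CPM. In EC1 and EC, Hoxc5, Hoxc8 and Hoxc10 had 0 UMIs and Hoxc11 had 1. Against the floor of 3 counts over the pooled endothelial UMIs, fibroblasts were at least 6.87-fold higher for Hoxc10, 5.29-fold for Hoxc9, 4.33-fold for Hoxc6, 2.61-fold for Hoxc8 and 2.34-fold for Hoxc5.

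**Figure D3:**
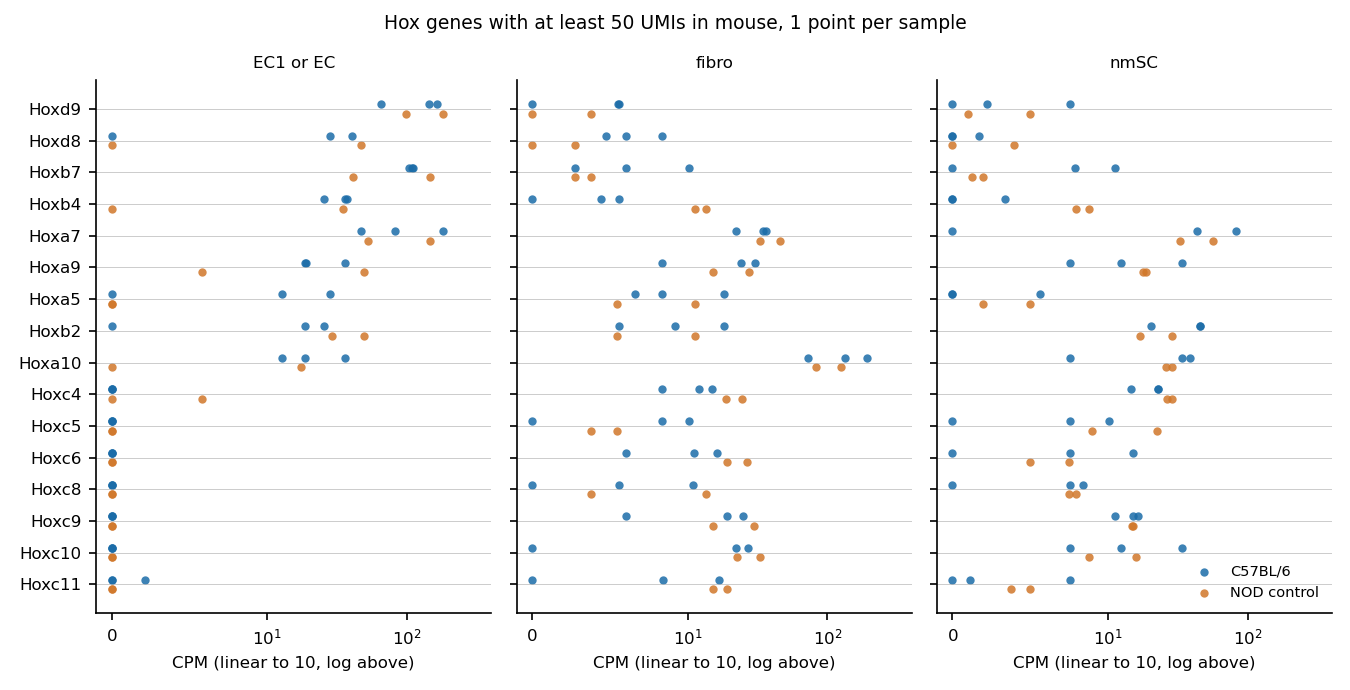
Level of the 16 Hox genes with at least 50 UMIs in mouse (y axis) in CPM (x axis, linear up to 10 and logarithmic above), with panels for endothelial cells (EC1 or EC), fibro and nmSC and 1 point for each of 5 samples. HoxC genes lie at 0 in the endothelial panel apart from 1 UMI each of Hoxc4 and Hoxc11, and Hoxd9 and Hoxb7 lie above 40 CPM there.

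Most Hox genes overlapped in range between nmSC and fibroblasts. The share of paralog groups 9 to 13 differed in samples with at least 20 Hox UMIs. Between nmSC and fibroblasts, 17 Hox symbols reached 20 UMIs. The fibroblast range was wholly above the nmSC range in 1 of 17 (5.88%), Hoxa10, against 4.65% of 11073 genes, and the reverse held for 0 of 17, against 4.36%. These shares are near or below those of all genes.
Groups 9 to 13, the high-numbered end, gave 60.7%, 62.6% and 66.1% of Hox UMIs in C57BL/6 fibroblasts and 53.2% and 61.3% in those of the NOD controls. In nmSC they gave 21.9% and 37.0% in C57BL/6 1 and 3 and 31.7% and 39.3% in the NOD controls. The fibroblast samples were all above these nmSC samples. Hoxa10 weighs heavily on this difference, with 492 UMIs in fibroblasts and 122 in nmSC over the 5 samples. Shares without it are not given. The nmSC of C57BL/6 4 had 19 Hox UMIs, under the 20 asked for a share. Of these 10 were in groups 9 to 13, a higher share than in the other nmSC samples and close to the lowest fibroblast sample. Group 10, which holds Hoxa10, Hoxc10 and Hoxd10, gave 44.8% of pooled Hox UMIs in C57BL/6 fibroblasts and 21.9% in nmSC.
At the low-numbered end, Hoxb2 was higher in nmSC in 5 of 5 samples, with ranges that met. It was at 45.3, 20.2 and 45.3 CPM in C57BL/6 nmSC and at 28.8 and 16.9 CPM in the NOD controls, against 5.57, 9.19 and 18.1 CPM and 11.4 and 5.47 CPM in fibroblasts. Group 2 gave 11.5% of pooled Hox UMIs in C57BL/6 nmSC and 2.74% in fibroblasts. Hoxb2 was higher still in mural cells, at 104 and 75.1 CPM in PC and 149 and 75.0 CPM in vSMC of C57BL/6 1 and 3. Hoxc4 was higher in nmSC in 4 of 5 samples, at 22.65, 14.6 and 22.65 CPM in C57BL/6 and 26.3 and 28.9 CPM in the NOD controls.
The other HoxC and HoxA genes were present in both. In nmSC Hoxa7 was at 83.0, 43.3 and 0 CPM in C57BL/6 and 56.4 and 32.9 CPM in the NOD controls, Hoxc9 at 11.3 to 16.3 CPM over the 5 samples and Hoxc10 at 7.55 to 34.0 CPM. Hoxa9 was at 7.55 to 34.0 CPM, and Hoxc6, Hoxc5, Hoxc8 and Hoxc11 lay between 0 and 22.6 CPM. Hoxa5, Hoxb4, Hoxd8 and Hoxd9 stayed below 9 CPM in every nmSC sample.

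In rat, fibro and nmSC were both rich in HoxC and alike in most genes. Hoxc9 was at 18.6 and 19.4 CPM in rat fibro and at 9.11 and 13.1 CPM in nmSC. Hoxc10 was at 9.97 and 10.9 CPM in fibro and at 16.03 and 13.3 CPM in nmSC, the opposite order. Both orders held in both samples. Hoxc4 was at 8.95 and 10.4 CPM in fibro and 9.29 and 8.76 CPM in nmSC, and Hoxc5 at 5.87 and 7.57 CPM in fibro and 13.5 and 7.57 CPM in nmSC. Hoxc8 and Hoxc11 were at 1.42 to 4.41 CPM in these types. Hoxa5, the only HoxA gene seen in quantity, was at 11.7 and 13.1 CPM in fibro, 7.11 and 5.18 CPM in nmSC, 10.2 and 29.1 CPM in vascular EC and 9.65 and 20.5 CPM in microvasculatory EC.
The rat endothelial types shared Hoxb4 and Hoxb7 and differed in Hoxd9 and Hoxd10. Hoxd9 was at 59.0 and 68.0 CPM in vascular EC and at 8.04 and 11.2 CPM in microvasculatory EC. Hoxd10 was at 54.9 and 55.8 CPM in vascular EC, and 0 UMIs of it were found in microvasculatory EC, which allows up to 2.59 CPM. In fibro and nmSC it was at 0.199 to 0.547 CPM, and of its 62 UMIs in rat 27 and 23 came from vascular EC of the 2 samples. Hoxb4 was at 26.4 and 21.9 CPM in vascular EC and 22.5 and 42.9 CPM in microvasculatory EC, and Hoxb7 at 16.3 and 24.3 CPM and at 33.8 and 18.6 CPM. In mouse EC1, Hoxd10 had 10.6 CPM in C57BL/6 3 and 0 in the other 2 samples.
Groups 9 to 13 gave 64.8% and 60.2% of Hox UMIs in vascular EC, 18.5% and 17.9% in microvasculatory EC, 49.2% and 45.3% in fibro and 47.9% and 54.8% in nmSC. The 2 endothelial types stood on either side of the fibro and nmSC cells. Rat Hoxa9 and Hoxa10, with 0 and 2 UMIs, add almost nothing to these shares.

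**Figure D4:**
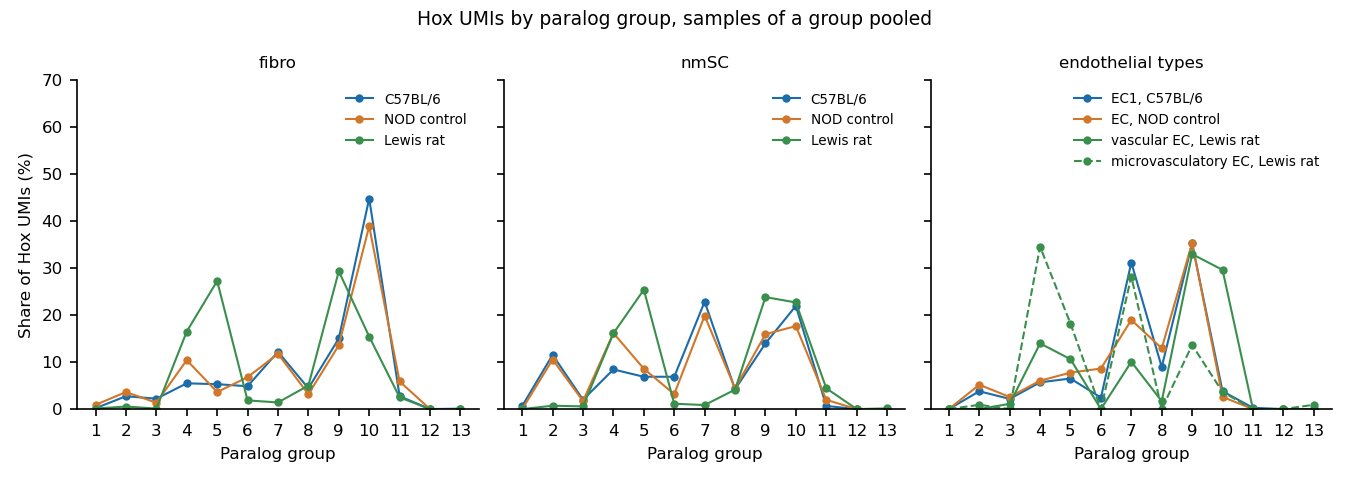
Share of Hox UMIs (y axis, percent) from each paralog group, 1 to 13 (x axis), with the samples of a group pooled, in fibro, nmSC and endothelial types of C57BL/6, NOD control and Lewis rat. Group 10 is the peak in mouse fibro (44.8% in C57BL/6), groups 7 and 9 are the peaks in EC1 (31.2% and 35.2%), and group 4 is the peak in rat microvasculatory EC (34.5%).

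Because mouse libraries pool a forelimb and a hindlimb nerve, genes that mark the limbs were counted in fibro and nmSC together. Tbx5 directs the forelimb, and Tbx4 and Pitx1 the hindlimb. In C57BL/6, Tbx5 had 15 UMIs (2.86 CPM, 1.60 to 4.72), Pitx1 had 25 (4.76 CPM, 3.08 to 7.03) and Tbx4 had 0. In the NOD controls Tbx5 and Pitx1 had 6 each. In the libraries labelled Icam1 knockout, where 207 such cells held 330347 UMIs, Tbx5 and Pitx1 had 0 (which allows up to 11.2 CPM by the exact interval) and Tbx4 had 2. Both Tbx5 and Pitx1 were thus found in C57BL/6 and in the NOD controls, and each was found in all 3 C57BL/6 samples. In rat, whose cells came from the hindlimb nerve alone, Pitx1 had 14 UMIs (0.591 CPM, 0.323 to 0.992), Tbx5 had 6 (0.253 CPM, 0.0930 to 0.552) and Tbx4 had 1. Rat fibro and nmSC also held Hoxc4 and Hoxc5 at the levels given above, so UMIs of low-numbered HoxC genes were present in cells taken from sciatic nerve only.
Which genes met in a cell was counted in C57BL/6 fibroblasts with at least 1000 UMIs, 1285 cells. Of these 93 had a UMI of Hoxc10 or Hoxc11. Hoxc8 or Hoxc9 was found in 15 of the 93 (16.1%) and in 4.61% of the other cells, and Hoxc4, Hoxc5 or Hoxc6 in 11 of the 93 (11.8%) and in 7.22% of the others. Hoxa10, present in 272 cells, was found at about the same share in both (23.7% and 21.0%). Tbx5 was seen in 15 cells and Pitx1 in 16, and no cell had both. Of the Pitx1 cells 3 had Hoxc10 or Hoxc11, and of the Tbx5 cells 0. With so few Tbx5 and Pitx1 cells, these counts cannot tell whether the genes meet in a cell or keep apart. In rat fibro, Hoxc8 or Hoxc9 was found in 28 of 144 cells with Hoxc10 or Hoxc11 (19.4%) and in 6.70% of the others. Cells of 1 library are not replicates and deeper cells show more genes, so these shares are descriptions, and most cells with a Hox UMI showed 1 Hox gene (430 cells with 1 and 196 with more in C57BL/6 fibroblasts).

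No Hox gene was called between the strains. NOD control samples were set against C57BL/6 samples (2 against 3) with edgeR's quasi-likelihood test over all genes, adjusted by the Benjamini-Hochberg method. Strain and library batch cannot be told apart in this comparison. In nmSC 7 Hox genes passed the filter on low counts and 0 were called, against 2.28% of 7691 genes. In fibroblasts 0 of 2 were called, against 1.82% of 4780 genes, and in endothelial cells 0 of 3, against 1.96% of 2091 genes. None of the 12 had an unadjusted p under 0.05, and DESeq2 called 0. The other Hox genes had too few UMIs to enter, and mySC could not be compared because C57BL/6 4 held 7 of them.
The intervals show what these samples could tell. Hoxb7 in endothelial cells, whose values by sample are above, was lower in the NOD controls by edgeR's estimate, with a log2 fold change of -0.98 ± 0.59 (SE, adjusted p = 0.822, 95% interval -2.27 to 0.32). Hoxa10 in fibroblasts had -0.44 ± 0.36 (adjusted p = 0.768, -1.22 to 0.33). Hoxc4 in nmSC had 0.58 ± 0.46 (adjusted p = 0.774, -0.39 to 1.55). Each interval spans 0 and reaches past a 2-fold change on at least 1 side, so differences of that size were not detectable. The estimates of Hoxd9 and Hoxa7 in endothelial cells, Hoxa7 in fibroblasts and Hoxa7, Hoxa10, Hoxb2 and Hoxc10 in nmSC changed sign when single samples were left out.
The endothelial samples also differed in other cells' markers. Lymphatic endothelial genes summed to 876 and 10870 CPM in EC of the NOD controls and to 0 to 46.5 CPM in EC1. Pan-fibroblast genes summed to 2488 and 5242 CPM in the NOD controls and to 72.3 to 1619 CPM in EC1. Their part in the endothelial values was not tested. HoxC gave 1 of 116 Hox UMIs in those NOD samples and 1 of 369 in EC1.

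**Figure D5:**
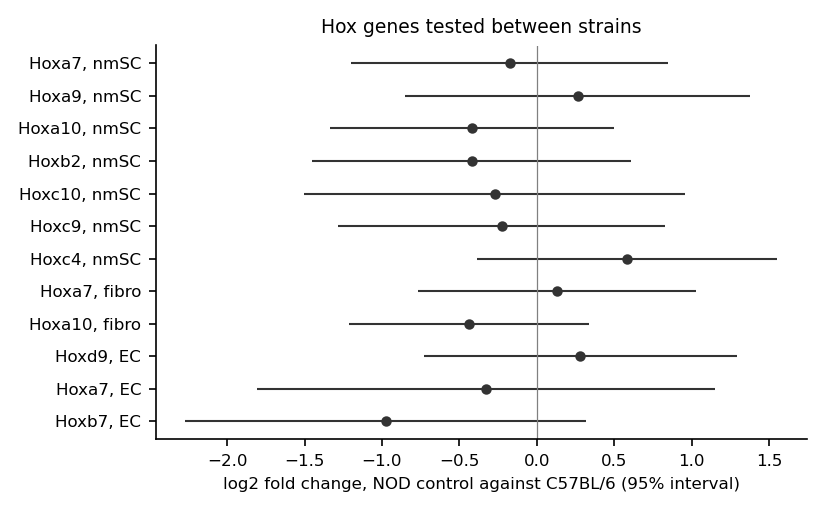
Log2 fold change of NOD control against C57BL/6 (x axis) for the 12 pairs of Hox gene and cell type that passed the filter, with points for the edgeR estimate and bars for its 95% interval. Every bar crosses 0.

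Among genes of the Hox pathway, lists of 9 cofactors (Pbx, Meis and Pknox genes), 19 chromatin regulators (Polycomb and Trithorax members and demethylases), 19 limb and mesenchyme position factors and 11 long RNAs and neighbours of the clusters were read from the same fits. In nmSC 6, 12, 7 and 2 of their members were tested and 0 were called. The counts at an unadjusted p under 0.05 were 0, 1, 2 and 1, and DESeq2 called 0. In fibroblasts 3, 8, 4 and 0 were tested and 0 were called, with 0, 1, 1 and 0 at an unadjusted p under 0.05 and 0 by DESeq2. In endothelial cells 2 chromatin regulators and 2 long RNAs were tested, 0 were called by edgeR or DESeq2, and none of the 4 had an unadjusted p under 0.05.

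The libraries labelled Icam1 knockout were compared with the NOD controls, 3 against 2 samples. Icam1 itself, an adhesion molecule of leukocytes and endothelium, was at 248, 261.5 and 254.5 CPM over all named cells in these libraries and at 94.5 and 51.0 CPM in the NOD controls. In EC it was at 143, 276 and 134 CPM against 49.0 and 46.7 CPM. The level was thus higher under the knockout label, and since which part of the gene was deleted is not given and 3′ tags may lie outside it, these tags do not check the label.
The summed Hox level did not separate the groups. EC had 658, 710 and 401 CPM in the libraries labelled Icam1 knockout, around the 637 and 602 CPM of the NOD controls. The nmSC had 243, 174 and 189 CPM against 253 and 205 CPM, and mySC had 100.6, 22.8 and 77.9 CPM against 153 and 84.6 CPM. The samples overlapped in EC, nmSC and mySC. The mySC values rest on 1 to 8 Hox UMIs in each library labelled Icam1 knockout, and the 153 CPM on 2.
No Hox gene had enough UMIs to pass the filter in nmSC, mySC or EC, where 3.9%, 11.4% and 2.6% of the genes tested by edgeR were called. Without the filter 22, 15 and 18 Hox genes were tested and 0 were called, with 0, 2 and 1 at an unadjusted p under 0.05, while DESeq2 on the filtered genes had no Hox gene to call. The pair in mySC was Hoxb2 and Hoxc4, and the gene in EC was Hoxd9.
Hoxc4 in mySC had 2, 1 and 3 UMIs in the libraries labelled Icam1 knockout (25.1, 22.8 and 39.0 CPM) and 0 in both NOD controls. Its edgeR log2 fold change without the filter was 4.96 ± 1.70 (adjusted p = 0.166). In nmSC Hoxc4 was at 70.9, 24.9 and 40.5 CPM against 26.3 and 28.9 CPM, which overlap. Hoxd9 in EC was at 114.5, 39.5 and 33.4 CPM against 98.0 and 181 CPM, also overlapping.
Markers of other cells differed beside these values. In mySC, 6 of 6 myelinating Schwann genes were called lower under the knockout label by edgeR and 4 by DESeq2, and they summed to 6376 to 10390 CPM against 34370 and 50870 CPM. T cell genes summed to 390 to 571 CPM in those mySC against 0 and 64.8 CPM, and in nmSC to 344 to 472 CPM against 3.76 and 89.6 CPM. In EC, T cell genes summed to 276 to 486.5 CPM against 0 and 81.8 CPM, lymphatic endothelial genes to 0 CPM in all 3 samples against 876 and 10870 CPM, and pan-fibroblast genes to 172 to 301 CPM against 2488 and 5242 CPM. Their part in the Hox values was not tested.
HoxC was rare in EC of these libraries, with 1 of 53 Hox UMIs. Hoxb7 there was at 85.8, 276 and 100.2 CPM and Hoxa7 at 28.6, 118 and 33.4 CPM, while Hoxa10 was at 28.6, 0 and 0 CPM. In nmSC Hoxa10 was at 60.8, 58.0 and 40.5 CPM, all 3 above the highest C57BL/6 or NOD control sample, at 38.8 CPM. These nmSC held 24, 21 and 14 UMIs of all Hox genes, so the Hoxa10 values rest on few UMIs. The lowest, 40.5 CPM, is within counting error of 38.8 CPM. The share of all genes with such an order was not counted. Hoxa10 did not pass the filter on low counts there. Hoxa7 in nmSC was at 30.4, 49.7 and 13.5 CPM, within the 0 to 83.0 CPM of those samples. So HoxB and HoxA genes of group 7 were found in all 3 EC samples, and Hoxa10 was found in 1 of them.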

How the data were processed

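UMI counts per gene and barcode, with cell type names per barcode, were used as the authors deposited them. Per the submitters' processing notes they were made with Cell Ranger 3.0.2 on mm10 and Rnor_6.0. Per the labels' protocols, mouse nerves were digested, depleted of myelin and sorted for live cells, and rat sciatic nerve cells were taken from a Percoll gradient with no sort, steps that can change which cells are seen. Counts were summed per sample and cell type (at least 20 cells, and at least 20 Hox UMIs for a share) and given as CPM, with no correction for gene length since 3′ ends were counted. Counts of several identifiers of a symbol were added. Sums were tested with edgeR 4.0.16 (TMM scaling, filterByExpr minimum count 10, quasi-likelihood test, Benjamini-Hochberg adjusted p under 0.05 over all genes), in R 4.3.3. DESeq2 1.42.0, other scaling, no filter, left-out samples and a replicate block were alternatives. On simulated data the edgeR script recovered 75.0% to 98.1% of the genes changed 4-fold that passed the filter (123 to 196 in each of the 6 comparisons). It made 0 to 13 false calls. The changed genes had at least 50 UMIs, and every gene had the same simulated spread between samples. The recovery therefore does not apply to Hox genes that did not pass the filter. Doublets were not called. Intervals of counts and shares are 95% exact Poisson or Clopper-Pearson and cover counting error only, while those of fold changes come from the edgeR fit over samples. Genes named with values in each sample have at least 50 UMIs in mouse or in rat. Coordinates are GENCODE vM21 and promoters RefSeq. Members and lists were chosen with earlier results of these data known. Tests of a list of retinoic acid genes and values of 1 Hox gene, which stays in the sums, are not reported here. No rat annotation or protein sequences were used here.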

Additional observations from a re-analysis of the deposited data

Results flagged for a closer look

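Hox UMIs were also found in barcodes to which the authors gave no cell type, data used in no comparison above. There were 63 in 202 such barcodes of C57BL/6 (272 CPM, 95% exact Poisson interval 209 to 348), 30 in 140 of Lewis rat (79.9 CPM, 53.9 to 114), 9 in 123 of the libraries labelled Icam1 knockout (54.4 CPM, 24.9 to 103) and 4 in 53 of the NOD controls (64.1 CPM, 17.5 to 164). In C57BL/6 this was above the 2.84 CPM of leukocytes and between the levels of nmSC and fibro. No group had more than 3 samples, so no sample was tested for standing apart from its group.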

How the results depend on the processing

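Between the strains 0 Hox genes were called under every alternative run (DESeq2, RLE size factors, no filter on low counts, NOD control libraries 2-1 and 2-2 kept apart, and each sample left out), although none was tested in EC without C57BL/6 replicate 3. For the knockout label the 0 calls say nothing of stability where no Hox gene was tested, which holds in mySC and EC for all settings but the one without the filter. In nmSC 22 were tested without the filter, 2 with the libraries apart and 3 without each knockout label replicate in turn, and 0 were called. With the replicate block for the comparison of the knockout label, 0 Hox genes were called, none having passed the filter, and the blocked fit called 56, 92 and 18 genes of any kind in nmSC, mySC and EC against 82, 195 and 14 without it. Samples with the same number correlated at -0.061 to 0.11, so the numbers were not taken as pairs. Restricting to cells with at least 1000 UMIs moved the HoxC share to 35.6% in C57BL/6 nmSC and 37.7% in NOD control fibro, and the summed level to 506 CPM in NOD control EC and 57.3 CPM in NOD control mySC; the cause was not tested. Thinning to 500 UMIs lowered the share of cells with a Hox UMI by construction, in C57BL/6 to 24.7% (EC1), 15.3% (fibro) and 10.6% (nmSC), in NOD control to 25.4% (EC), 15.5% (fibro) and 9.95% (nmSC), under the knockout label to 2.5% (mySC) and 10.9% (nmSC), and in rat to 10.6% (vascular EC), 4.07% (fibro), 3.44% (microvasculatory EC) and 3.32% (nmSC). Without thinning the shares were 43.8% (fibro) and 25.5% (nmSC) in C57BL/6 and 40.7% (vascular EC), 20.9% (fibro), 29.9% (microvasculatory EC) and 15.8% (nmSC) in rat, where microvasculatory EC moves from below fibro to above it. The HoxC share alternatives were chosen after seeing the data. Strain in mySC was not run, since C57BL/6 4 held 7 such cells. Few UMIs per sample limit single genes: 1 UMI is worth 36.1 CPM in the 25 EC1 cells of C57BL/6 4.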

Other observations

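Long RNAs of the clusters showed cell type patterns of their own, given as values. Hotairm1, a long RNA of the HoxA cluster whose counts can hold reads of the other strand where strand is not used, was at 131, 63.4 and 145 CPM in EC1 of C57BL/6 1, 3 and 4 and at 147 and 105 CPM in EC of the NOD controls. In fibroblasts it was at 8.36 to 30.3 CPM over the same 5 samples, below every endothelial sample, and in nmSC at 21.3 to 45.3 CPM.

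Hoxb3os, antisense to Hoxb3 and Hoxb2, was at 7.55, 5.62 and 11.3 CPM in nmSC of C57BL/6 and at 26.3 and 21.9 CPM in nmSC of the NOD controls (edgeR log2 fold change 1.77 ± 0.57, adjusted p = 0.146). In nmSC of the libraries labelled Icam1 knockout it was at 30.4, 24.9 and 27.0 CPM. Both groups of NOD mice were thus above all C57BL/6 samples in nmSC, but Hoxb3os was not called between the strains. Strain and library batch cannot be told apart, and the share of all genes with such an order was not counted. The nmSC of C57BL/6 1 and 4 held 132478 and 88308 UMIs in all, so 7.55 and 11.3 CPM rest on very few UMIs. In mySC Hoxb3os was at 0 and 35.6 CPM in C57BL/6, 0 and 70.2 CPM in the NOD controls and 25.1, 114 and 52.0 CPM under the knockout label, so its reads were found in cells with few other Hox UMIs. Counts of this RNA and of Hoxb2 could be confused only if reads were not assigned by strand.

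Leukocytes of the libraries labelled Icam1 knockout held 59 Hox UMIs in 4699 cells, and Hoxb4 gave 24 of them (4.33 CPM, 2.78 to 6.45). In C57BL/6 leukocytes Hoxb4 had 0 UMIs among 1056076, which allows up to 3.49 CPM by the exact interval. The 2 intervals overlap, and the difference between these groups was not tested. In leukocytes of the NOD controls it had 6 UMIs (4.75 CPM, 1.74 to 10.3), an interval that holds the level under the knockout label. Within the leukocytes under the knockout label, Hoxb4 had 9 UMIs in CD4 cells and 8 in CD8 cells.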
